A study of Homo sapiens with 6 samples.

Results

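The CYP1 family of cytochrome P450 enzymes consists in human of CYP1A1, CYP1A2 and CYP1B1, and its mRNAs were followed in 6 RNA-seq libraries of HCT116 MCM2-mAID cells. The members were chosen by name, as the 3 CYP1 genes among 36415 genes to which transcripts were assigned in GENCODE release 44, with 17 annotated transcripts between them. HCT116 is an established human colorectal carcinoma line, and the derivative used here is a single clone. Both MCM2 alleles of this clone are fused to a mini auxin-inducible degron (mAID), and the clone carries the plant F-box protein AtAFB2 under a CMV promoter, so that auxin directs the tagged MCM2 protein to the proteasome. MCM2 belongs to the hexameric helicase that unwinds DNA at replication forks and that is placed on chromatin before S phase. In 3 libraries the cells had received auxin (500 µM indoleacetic acid) for 6 h, and in 3 libraries they had received the solvent dimethyl sulfoxide (DMSO). In both groups the cells had been arrested with thymidine, released, stained with Hoechst and sorted from the left part of the G1 peak. The libraries are described as independent replicates; whether each came from a separate culture or sort is not spelled out, and p-values cover the variation among these 6 libraries. All cells carried the degron, and an effect of auxin itself and an effect of MCM2 loss cannot be told apart.

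CYP1 enzymes are haem proteins of the endoplasmic reticulum that oxidise flat aromatic compounds. CYP1A1 oxidises polycyclic aromatic hydrocarbons and is low in most tissues until induced, CYP1A2 is known mainly from liver, where it oxidises caffeine and aromatic amines, and CYP1B1 is expressed outside the liver and hydroxylates oestradiol. Transcription of all members is known to respond to the aryl hydrocarbon receptor (AHR), a cytosolic factor that, once bound by ligands such as dioxins, aromatic hydrocarbons or tryptophan-derived indoles, enters the nucleus, pairs with ARNT and binds xenobiotic response elements (XREs) with the core GCGTG. In the intestinal epithelium these enzymes are known as a first barrier to dietary and microbial AHR ligands.

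CYP1A1 (ENSG00000140465.15) lies on chromosome 15 between 74719542 and 74725536 on the minus strand of hg38, and CYP1A2 (ENSG00000140505.7) lies between 74748845 and 74756607 on the plus strand. The annotated starts of these genes are 23.3 kb apart and the genes are transcribed away from each other. CYP1B1 (ENSG00000138061.12) lies on chromosome 2 between 38066973 and 38109902 on the minus strand. The promoter sequences of the neighbouring pair are shown because the genes share a locus and both have a RefSeq promoter entry. Whether these sequences bear on the mRNA levels was not tested. The 250 bases before the RefSeq start (GRCh38.p14) are given 5′ to 3′ on the strand of the gene, at chr15:74725529-74725778 (minus strand) for CYP1A1 and chr15:74748595-74748844 (plus strand) for CYP1A2, with XRE cores (GCGTG, either strand) and the TATA box letters TATAAA (gene strand) in capitals.
CYP1A1 promoter: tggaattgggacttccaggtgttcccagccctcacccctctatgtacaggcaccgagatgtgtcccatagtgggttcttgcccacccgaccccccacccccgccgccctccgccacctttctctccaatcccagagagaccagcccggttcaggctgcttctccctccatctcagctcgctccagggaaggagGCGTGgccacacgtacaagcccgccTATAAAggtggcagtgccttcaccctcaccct
CYP1A2 promoter: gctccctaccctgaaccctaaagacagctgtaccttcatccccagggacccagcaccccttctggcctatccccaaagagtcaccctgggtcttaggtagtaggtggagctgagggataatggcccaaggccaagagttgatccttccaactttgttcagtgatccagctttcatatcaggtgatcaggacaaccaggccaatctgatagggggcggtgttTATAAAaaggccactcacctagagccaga

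The CYP1A1 window held 1 XRE core, whose first base lies 57 bases before the start, and TATAAA at 32 bases before the start. The CYP1A2 window held TATAAA at 29 bases before the start and 0 XRE cores. Of 35116 RefSeq promoters of the same length, 32.2% held at least 1 XRE core on either strand and 6.80% held TATAAA on the gene strand, so that an XRE core close to a start was a frequent feature. CYP1B1 had no entry in the RefSeq promoter table used.

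Over the 2000 bases before the RefSeq start in hg38, CYP1A1 held 11 XRE cores on the 2 strands and CYP1A2 held 1. CYP1B1 was left out of this comparison by choice, although this window does not depend on the RefSeq promoter table. The counts thus set 1 gene with a higher mRNA level in auxin against 1 gene that was not called. Whether the number of cores goes with the mRNA level across the family was not tested. Over the same window the median of 20028 protein-coding genes was 2 cores, 84.9% held at least 1, and 0.699% held at least 11. The windows also differed in base composition, with a GC content of 62.2% for CYP1A1 and 45.6% for CYP1A2. The median over these protein-coding genes was 49.4%, and the part of base composition in the count of cores was not tested. The densest stretch of cores, 1273 to 974 bases before the CYP1A1 start at chr15:74726502-74726801 (minus strand, hg38), is shown with its 5 cores in capitals, written GCGTG or, when on the other strand, CACGC.
CYP1A1 upstream stretch: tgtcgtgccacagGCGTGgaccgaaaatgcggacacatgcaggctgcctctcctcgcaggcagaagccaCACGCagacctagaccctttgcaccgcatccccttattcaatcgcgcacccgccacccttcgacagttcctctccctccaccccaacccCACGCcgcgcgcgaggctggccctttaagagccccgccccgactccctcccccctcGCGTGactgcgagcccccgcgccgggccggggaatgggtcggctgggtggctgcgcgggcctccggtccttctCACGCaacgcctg
These letters describe the sequence only; binding of AHR was not measured in these libraries.

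The libraries held between 52.5 M and 68.4 M estimated counts, the number of reads that kallisto assigned to each transcript, which need not be whole where reads are shared between transcripts. Colon epithelial markers were present, with 10 of 12 tested, EPCAM between 274 and 303 CPM (counts scaled to a common, normalised library size) and CDX1 listed at 0 in all libraries. The summed level of these 12 markers was 4353 to 4558 CPM in auxin and 4713 to 5195 CPM in DMSO. KRT18 was lower (log2 fold change -0.17, SE 0.05, adjusted p = 0.0936) and CLDN4 was higher in auxin (0.23, SE 0.06, adjusted p = 0.073), and the part of these markers in the results for the CYP1 genes was not tested. The KRT18 call was lost without any 1 of the auxin libraries and without DMSO replicate 3 (adjusted p up to 0.324), and the CLDN4 call without auxin replicate 2, auxin replicate 3, DMSO replicate 1 or DMSO replicate 2 (up to 0.225). Of the 10 tested colon markers, DESeq2 called 1 higher and 2 lower. With the replicate number as a further term edgeR called 1 higher and 4 lower, and on both TPM scales 0 were called. Of the markers of other cell types that could be tested (3 of 6 leukocyte, 3 of 6 fibroblast, 2 of 4 endothelial and 2 of 6 hepatocyte markers), 0 passed the edgeR test, 0 had an unadjusted p under 0.05 and 0 were called by DESeq2 or limma-voom. On both TPM scales 1 fibroblast marker was called higher, and with no count filter 1 hepatocyte marker was. The leukocyte markers summed to 15.1 to 16.8 CPM in auxin and 14.0 to 15.9 CPM in DMSO, most of it CD68, while PTPRC stayed at or below 0.214 CPM. The fibroblast markers summed to 31.6 to 39.6 CPM in auxin and 27.2 to 35.7 CPM in DMSO, most of it COL1A1, and the endothelial markers to at most 1.12 and 1.19 CPM. The hepatocyte markers summed to 5.52 to 6.25 CPM in auxin and 4.88 to 6.41 CPM in DMSO, most of it SERPINA1, and ALB, the defining hepatocyte gene, reached at most 0.0924 CPM. MCM2 mRNA, which the degron does not target, was 354, 347 and 356 CPM in auxin and 367, 343 and 389 CPM in DMSO (log2 fold change -0.06, SE 0.05, adjusted p = 0.557), so it does not check the loss of the protein.

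CYP1A1 mRNA was 17.0-fold higher in auxin (95% confidence interval 14.2 to 20.4), CYP1B1 mRNA was 8.44-fold higher (6.00 to 11.9), and CYP1A2 mRNA stayed near its low DMSO level, at 0.905-fold (0.646 to 1.27). CYP1A1 and CYP1B1 were thus called, and CYP1A2 was not. In the test of all genes (edgeR quasi-likelihood with Benjamini-Hochberg adjustment, called at an adjusted p under 0.1), 6.78% of 15765 genes tested were called, 4.32% higher and 2.46% lower in auxin. All 3 members passed the filter on low counts. In bulk libraries, fewer cells with an mRNA and less of that mRNA per cell cannot be told apart.

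CYP1A1 received 1815, 1626 and 1500 estimated counts in auxin replicates 1, 2 and 3, and 94, 69.97 and 107 in DMSO replicates 1, 2 and 3. Scaled to library size, its level was 29.8, 25.0 and 23.9 CPM in auxin and 1.45, 1.41 and 1.76 CPM in DMSO, a mean of 26.2 ± 3.09 against 1.54 ± 0.196 CPM (SD, n = 3 each). The lowest auxin library was far above the highest DMSO library, so the groups did not overlap, as was the case for 26.7% of all tested genes. The log2 fold change was 4.09 (SE 0.12, adjusted p = 7.58e-08 by edgeR), the smallest p and the 4th largest increase of the 15765 genes. The gene was called in each of the 15 alternative analyses, with a log2 fold change from 3.09 on the log2(TPM + 1) scale, which compresses low values, to 4.19 without DMSO replicate 3.

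CYP1B1 received 1139, 889 and 696 estimated counts in auxin and 123, 83 and 95 in DMSO. These were 18.7, 13.7 and 11.1 CPM in auxin and 1.89, 1.67 and 1.57 CPM in DMSO, a mean of 14.5 ± 3.85 against 1.71 ± 0.167 CPM (SD, n = 3 each). Auxin replicate 1 was the highest and auxin replicate 3 the lowest library for both CYP1A1 and CYP1B1, and the spread among auxin libraries was wider for CYP1B1. The groups did not overlap. The log2 fold change was 3.08 (SE 0.21, adjusted p = 0.000653 by edgeR), the 6th largest increase and the 19th smallest p of all tested genes. Its value ranged from 1.97 (log2(TPM + 1)) to 3.24 (without auxin replicate 3) over 15 alternatives, and it was called in all 15.

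CYP1A2 received 26.7, 26.1 and 29.9 estimated counts in auxin and 30.5, 27.9 and 25.7 in DMSO. These were 0.443, 0.401 and 0.479 CPM in auxin and 0.477, 0.563 and 0.429 CPM in DMSO, and the ranges overlapped. The log2 fold change was -0.14 (SE 0.22, 95% confidence interval -0.63 to 0.34, adjusted p = 0.766 by edgeR). An increase of the size seen for CYP1A1 or CYP1B1 lies outside this interval, whereas changes of up to 1.27-fold upwards or to 0.646-fold downwards could not be told from none at this depth. The interval takes all of these counts as reads of CYP1A2, which was not tested. The gene was not called in any of the 13 alternatives that gave an adjusted p, where its log2 fold change lay between -0.23 and -0.01.

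**Figure D1:**
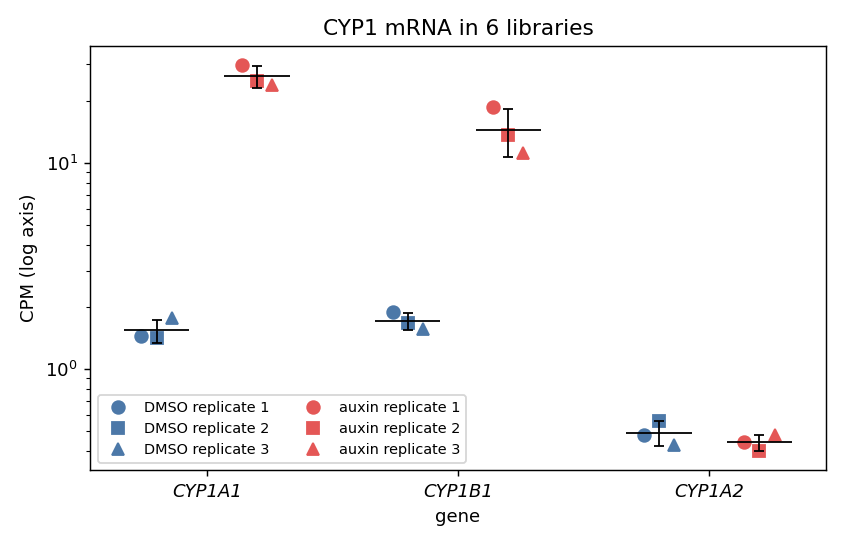
Expression of the 3 CYP1 genes in 6 libraries, as CPM on a log axis; blue symbols are DMSO and red symbols auxin libraries, symbol shape gives the replicate, and black lines give the mean with its SD (n = 3). CYP1A1 and CYP1B1 lay at 1.41 to 1.89 CPM in DMSO and at 11.1 to 29.8 CPM in auxin, and CYP1A2 stayed at 0.401 to 0.563 CPM in both.

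Reads could be assigned to these genes with different certainty. Of the 3493 different stretches of 31 bases (the length kallisto matches) in CYP1A1 transcripts of GENCODE 44, 28 (0.802%) also occurred in another gene, in each case CYP1A2. CYP1B1 shared 39 of 6104 (0.639%), in each case with the long non-coding RNA RMDN2-AS1. CYP1A2 shared 324 of 3102 (10.4%) with 2299 other genes, so that its low count is the least certain of the 3. Transcripts were compared only as written, so stretches shared with the opposite strand of other transcripts were not counted for any member. The estimated count summed over the gene was a whole number (within 0.001) in 5 of 6 libraries for CYP1A1 and in 6 of 6 for CYP1B1, but in 0 of 6 for CYP1A2. CYP1B1 overlaps RMDN2 and CYP1B1-AS1 on the opposite strand and RMDN2-AS1 on its own, and the strand setting of the assignment is not known, so reads of CYP1B1 and of these genes may not have been fully separated. RMDN2, the only one of these with a gene sum, was 3.03, 3.23 and 3.70 CPM in auxin and 2.83, 2.85 and 2.51 CPM in DMSO (log2 fold change 0.28, SE 0.12, adjusted p = 0.20).

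Per length, CYP1A1 stood clear of CYP1B1 in auxin, while in DMSO their ranges overlapped. TPM, the count divided by effective transcript length and scaled to a common total, was 16.8, 13.9 and 13.2 for CYP1A1 in auxin and 6.79, 4.83 and 3.93 for CYP1B1, with CYP1A2 at 0.170 to 0.205. In DMSO, CYP1A1 lay at 0.770, 0.690 and 1.03 TPM and CYP1B1 at 0.731, 0.503 and 0.429 TPM, and CYP1A2 again lay below them at 0.175 to 0.226 TPM. Within each DMSO library CYP1A1 was still the higher of the pair. The ratio of CYP1A1 to CYP1B1 TPM was 2.47, 2.87 and 3.35 in auxin and 1.05, 1.37 and 2.40 in DMSO. The ranges did not overlap, although DMSO replicate 3 came close to auxin replicate 1. The mean log2 ratio was 0.93 higher in auxin, with an exact permutation p of 0.1 (2-sided), the smallest that 3 against 3 libraries allow, so the design cannot place this difference below 0.05. Without DMSO replicate 1 the difference was 0.67, and without DMSO replicate 3 it was 1.26.

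The tables resolved the genes into 9 CYP1A1, 1 CYP1A2 and 7 CYP1B1 transcripts. Transcripts are those of the annotation, and none is a separately measured molecule. CYP1B1 was carried almost entirely by CYP1B1-205, the MANE Select transcript, with 95.7 ± 0.526% of the gene's counts in auxin against 96.2 ± 1.83% (SD, n = 3 each). It received 1092, 854 and 662 estimated counts in auxin and 116, 81.1 and 92.0 in DMSO, a log2 fold change of 3.08 (SE 0.23). Of its other transcripts, CYP1B1-206, which has no defined coding sequence, reached 27.4, 23.1 and 12.6 estimated counts in auxin and 3.72, 0 and 0 in DMSO, CYP1B1-202 was listed at 0 in all libraries, and the remaining 4 received at most 10.2 counts in any library. CYP1B1-201 has 567 bases in the deposited tables and 5021 in GENCODE 44, so the tables and that release hold different models of it.

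CYP1A1 was divided between CYP1A1-201, the MANE Select transcript, and CYP1A1-202, which codes for protein from a nearly equal length (2603 and 2608 bases). CYP1A1-201 received 844, 855 and 821 estimated counts in auxin and 35.7, 69.97 and 80.2 in DMSO. CYP1A1-202 received 850, 607 and 591 in auxin and 53.1, 0 and 0 in DMSO. This division is uncertain, because neither transcript holds a single stretch of 31 bases that no other CYP1A1 transcript has. Their sum was 1694, 1462 and 1412 estimated counts in auxin and 88.9, 69.97 and 80.2 in DMSO, or 92.5 ± 2.25% and 89.8 ± 13.2% of the gene's counts (SD, n = 3 each), so the share of the pair did not differ beyond its spread in DMSO. Among minor forms with stretches of their own, CYP1A1-208, annotated as a target of nonsense-mediated decay, received 51.9, 56.5 and 37.8 estimated counts in auxin and 5.13, 0 and 10.6 in DMSO. CYP1A1-205 received 29.1, 30.7 and 19.8 against 0, 0 and 2.52, and CYP1A1-207 received 40.1, 53.5 and 22.6 against 0, 0 and 13.7. CYP1A1-204 and CYP1A1-206 were listed at 0 in all libraries, CYP1A1-203 received at most 7.61 counts, and CYP1A1-209 received 23.2 counts in auxin replicate 2 alone.

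In the test per transcript, which covered 78049 transcripts of all genes, 8 of the 17 CYP1 transcripts passed the filter and 0 were called by edgeR, against a background of 0.00256% called, 0.00128% higher in auxin. Unadjusted, 6 of the 8 had a p under 0.05, but several of them passed the filter only through their auxin counts, so neither number is evidence of a direction. The smallest adjusted p was 0.107 for CYP1B1-205 and 0.155 for CYP1A1-201 (log2 fold change 3.62, SE 0.34). CYP1A1-202 had a larger fold change (5.24, SE 1.23) but an adjusted p of 0.567, with 1 DMSO library holding all of its DMSO counts. DESeq2 called 2 transcripts, CYP1A1-201 and CYP1B1-205, limma on log2(TPM + 1) called CYP1A1-201 and CYP1A1-202, and without DMSO replicate 1 edgeR called CYP1A1-201. Without a count filter edgeR called CYP1B1-205. Which transcripts passed the threshold thus depended on the analysis, and with so few transcripts called in all, the count of 0 says nothing about the isoforms.

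**Figure D2:**
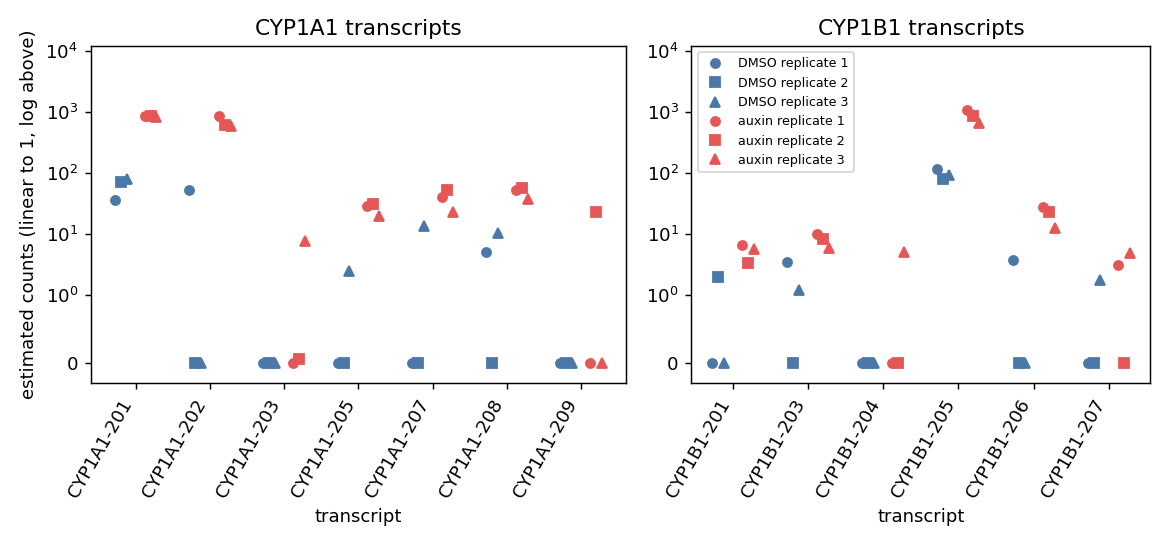
Estimated counts of each CYP1A1 and CYP1B1 transcript with a count in any library, on an axis that is linear up to 1 and logarithmic above; blue symbols are DMSO and red symbols auxin libraries, and symbol shape gives the replicate. CYP1B1-205 held nearly all CYP1B1 counts, and CYP1A1-202 was at 0 in 2 of 3 DMSO libraries and at 591 to 850 in auxin.

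The family was then set against the other P450 genes, which share its fold and haem but mostly act on steroids, sterols, vitamins, fatty acids or drugs. The annotation held 56 protein-coding genes with a P450 symbol (CYP, number, letters, number), and 26 of the 53 outside the CYP1 family could be tested. Genes with any other symbol were not counted, here or in the ranks and sums below. Among these 26, 0 were called higher by edgeR (background 4.32%), 2 had an unadjusted p under 0.05 in that direction, and DESeq2 and limma-voom likewise called 0 higher. On the log2(TPM + 1) scale 1 was called higher, and without auxin replicate 1, 2 of 28 tested were. Their median log2 fold change was 0.08, against 0.01 over all tested genes, and their estimates ran from -0.67 for CYP2C19 to 0.83 for CYP39A1, both below 0.61 CPM in all libraries. One was called lower: CYP24A1, which inactivates vitamin D, fell by 0.24 on the log2 scale (SE 0.06, adjusted p = 0.0657), from 130, 124 and 123 CPM in DMSO to 117, 102 and 99.3 CPM in auxin. That call was lost in 6 of 15 alternatives, on both TPM scales and without auxin replicate 2, auxin replicate 3, DMSO replicate 2 or DMSO replicate 3, where the adjusted p rose to as much as 0.259. The other highly expressed members did not pass the test: CYP51A1 of cholesterol synthesis (-0.06, SE 0.05), CYP2S1 (0.11, SE 0.06), CYP26B1, which clears retinoic acid (0.12, SE 0.08), and CYP27B1, which activates vitamin D (-0.11, SE 0.07), with adjusted p from 0.343 to 0.548. CYP11B2, CYP2A13 and CYP2A6 were listed at 0 in all libraries.

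Within this superfamily the members changed place. By TPM, CYP1A1 ranked 12th, 13th and 11th of the 56 genes in the DMSO libraries and 4th, 4th and 5th in the auxin libraries, behind CYP24A1, CYP51A1 and CYP2S1 and, in auxin replicate 3, CYP26B1. CYP1B1 moved from places 14, 17 and 18 to places 6, 9 and 11, and CYP1A2 stayed between places 23 and 29. The 3 CYP1 genes together held 0.879%, 0.742% and 0.899% of the summed P450 TPM in DMSO and 11.05%, 9.51% and 8.66% in auxin. The means were 0.840 ± 0.0855% and 9.74 ± 1.21% (SD, n = 3 each), a difference of 8.90 percentage points with an exact permutation p of 0.1, the smallest possible. With estimated counts in place of TPM the difference was 10.6 percentage points. P450 TPM as a whole summed to 182 to 193 in DMSO and 198 to 215 in auxin.

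**Figure D3:**
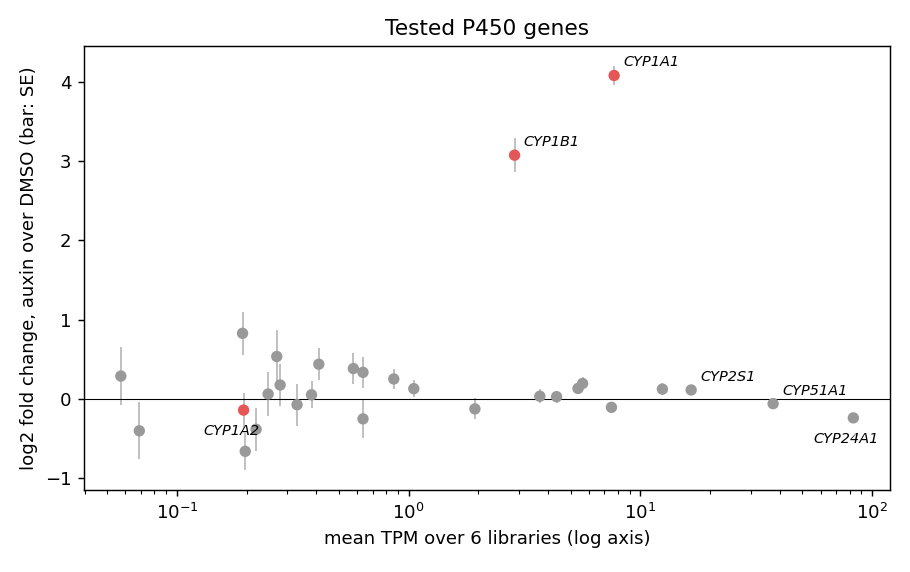
Log2 fold change (auxin over DMSO, with SE) of the 29 tested P450 genes against their mean TPM over 6 libraries on a log axis; red points are CYP1 genes and grey points all other P450 genes. CYP1A1 (4.09) and CYP1B1 (3.08) stand above all others, which lie between -0.67 and 0.83, and CYP1A2 (-0.14) lies among them.

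The mRNAs of AHR and of the proteins that hold or accompany it were not called by edgeR. Of 7 listed genes, all tested, 0 were called (background 6.78%), 2 had an unadjusted p under 0.05, and DESeq2 called 1 lower and limma-voom 0. With effective length as an offset and on both TPM scales 1 was called higher. AHR itself was 21.1, 20.5 and 22.8 CPM in auxin and 21.7, 19.3 and 19.1 CPM in DMSO (log2 fold change 0.10, SE 0.07, adjusted p = 0.463). The smallest adjusted p was that of its partner ARNT, at 26.5, 27.6 and 26.7 CPM in auxin and 24.4, 24.2 and 24.1 CPM in DMSO (0.15, SE 0.05, adjusted p = 0.121). The median of the list was -0.07.

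Several genes known as AHR targets besides the CYP1 family were also higher. Of 15 such genes, 13 were tested and 7 were called, all of them higher (background 4.32% higher), with a list median of 0.21. Of the 13 log2 fold changes, 10 lay above 0 and 3 below, with a range from -0.27 to 1.57. The list was drawn up with earlier results of these data known and is no independent evidence of a direction. AHRR, the AHR repressor and itself an AHR target, was 37.9, 39.0 and 37.8 CPM in auxin and 12.3, 12.6 and 13.7 CPM in DMSO (log2 fold change 1.57, SE 0.06, adjusted p = 4.05e-07). TIPARP, a mono-ADP-ribosyltransferase that modifies AHR, was 110, 101 and 90.1 CPM in auxin and 56.2, 48.3 and 46.7 CPM in DMSO (0.99, SE 0.09, adjusted p = 0.00135). In both genes the auxin libraries lay well above the DMSO libraries. SLC7A5, a transporter of large neutral amino acids, rose by less, from 1100 to 1118 CPM in DMSO to 1451 to 1584 CPM in auxin (0.43, SE 0.05, adjusted p = 0.00118). NFE2L2, the regulator of the antioxidant response, differed least of the 4 (0.21, SE 0.04, adjusted p = 0.0383), and its call was lost without auxin replicate 2 (adjusted p = 0.191) and without DMSO replicate 2 (adjusted p = 0.125). SERPINB2 (1.16, SE 0.26), EREG (0.49, SE 0.11) and ABCG2 (0.31, SE 0.09) were also called, but kept the call in only 6 of 13, 10 of 15 and 2 of 15 alternatives. SERPINB2 lost it without auxin replicate 2 or 3 and DMSO replicate 2 or 3, EREG without auxin replicate 2 and each DMSO library, and ABCG2 without each of the 6 libraries (adjusted p up to 0.190, 0.213 and 0.271). Over all alternatives, between 3 and 8 genes of the list were called higher and 0 lower, the lowest counts being 3 when auxin replicate 2 was left out, 3 for DMSO replicate 2 and 4 for DMSO replicate 3. NQO1, a quinone reductase of the classical battery, was not called (0.14, SE 0.05, adjusted p = 0.133), and ALDH3A1 stayed near 1 TPM with overlapping groups (-0.16, SE 0.19).

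Of the genes that supply and follow CYP1 activity, 1 was called higher and 1 lower, both in haem metabolism, against a background of 6.78% called, and counts this small cannot be set apart from that share. Of 6 genes that pass electrons to P450 enzymes or bind them, including the reductase POR (-0.06, SE 0.06), 0 were called by edgeR, DESeq2 or limma-voom, 2 had an unadjusted p under 0.05, and all 6 estimates lay below 0 with a median of -0.09. Without DMSO replicate 1, 1 of them was called lower. Among 12 genes of haem synthesis and breakdown, CPOX, which makes protoporphyrinogen, rose from 187, 179 and 185 CPM to 252, 235 and 224 CPM (0.37, SE 0.05, adjusted p = 0.00373) and was called in all 15 alternatives. UROD, the enzyme before it in the pathway, fell by 0.16 on the log2 scale (SE 0.05, adjusted p = 0.0845), a call kept in 7 of 15 alternatives and lost without any of the 3 auxin libraries, without DMSO replicate 2 and without DMSO replicate 3 (adjusted p up to 0.261). ALAS1, which controls the first step of haem synthesis, was not called (-0.06, SE 0.04). Of 36 genes that hydrolyse or conjugate oxidised products, 28 were tested and 0 were called by edgeR, 3 had an unadjusted p under 0.05, and DESeq2 called 2 lower and limma-voom 0. Without auxin replicate 1, 1 was called higher, and without DMSO replicate 1, 2 were called lower. The median of the list was -0.02 and its smallest adjusted p was that of NQO1, while EPHX1, the epoxide hydrolase that acts on CYP1 products, stood at 0.01 (SE 0.05).

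Genes around the CYP1A locus differed far less between the groups than CYP1A1 did. Of 13 tested genes whose start lies within 250 kb of that of CYP1A1, CYP1A2 included, 2 were called (background 6.78%), a number too small to set apart from that share, and all 13 had a log2 fold change between -0.23 and 0.25. EDC3, a decapping cofactor that starts 29.2 kb from the CYP1A1 start, was 90.1, 89.0 and 88.5 CPM in auxin and 75.7, 74.4 and 76.8 CPM in DMSO (0.24, SE 0.04, adjusted p = 0.0134) and was called in all 15 alternatives. RPP25, a subunit of RNase P that starts 231 kb away, was called as well (0.25, SE 0.07, adjusted p = 0.0885), but in only 6 of 15 alternatives, and the call was lost whichever of the 6 libraries was left out (adjusted p from 0.1005 to 0.266). The nearest tested gene beyond CYP1A2, CSK, was not called (0.08, SE 0.05). RMDN2 was the only tested gene with a start within 250 kb of CYP1B1.

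**Figure D4:**
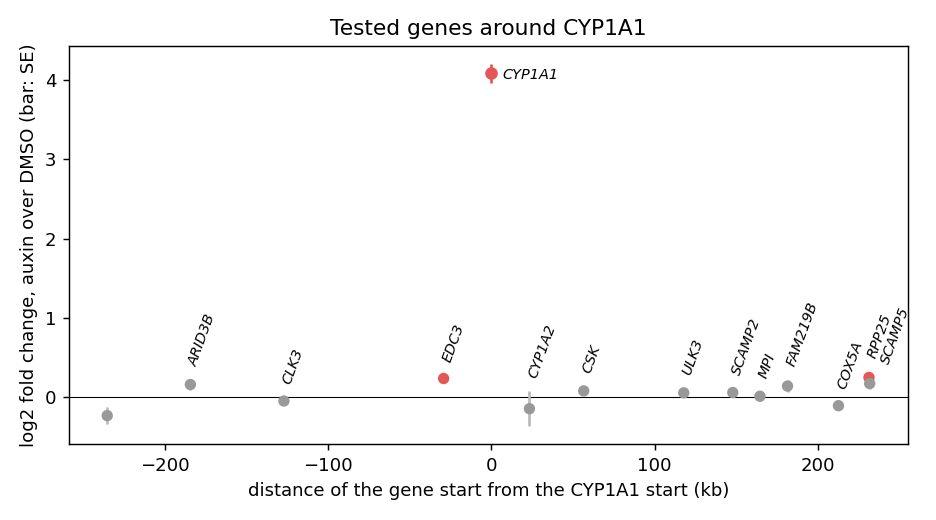
Log2 fold change (auxin over DMSO, with SE) of the tested genes around CYP1A1 against the distance of each gene start from the CYP1A1 start in kb; red points were called and grey points were not, and 1 gene without a symbol has no name. CYP1A1 stands at 4.09 and its 13 neighbours lie between -0.23 and 0.25.

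The genes whose profiles over the 6 libraries were most like those of CYP1A1 and CYP1B1 were sought among 12753 tested genes. The mean level of these reached 1 CPM. Likeness was the root mean square difference of log2(CPM + 0.5) profiles centred on their own means. The closest to CYP1A1 was CYP1B1 (0.52), followed by GTF2IP1 (0.77), ADGRF1 (0.80), AHRR (1.09) and GPR15 (1.15). The closest to CYP1B1 were GTF2IP1 (0.29), ADGRF1 (0.31), CYP1A1 (0.52), AHRR (0.64) and GPR15 (0.70), so the same genes surrounded both. With 3 libraries a group, such likeness mainly reflects the size of the difference between groups. ADGRF1, an adhesion G-protein-coupled receptor, was 8.74, 6.96 and 5.20 CPM in auxin and 1.14, 1.43 and 0.692 CPM in DMSO (log2 fold change 2.70, SE 0.27, adjusted p = 0.00373). GPR15, a receptor that guides lymphocytes to the colon, was 3.23, 3.42 and 3.49 CPM in auxin and 0.862, 1.04 and 0.923 CPM in DMSO (1.85, SE 0.13, adjusted p = 6.93e-05). GTF2IP1 is a pseudogene with near-identical copies, so reads may have been divided differently between copies, and its values are uncertain: it was 3.03, 1.76 and 1.44 CPM in auxin and 0, 0.1005 and 0 CPM in DMSO. As in CYP1A1 and CYP1B1, auxin replicate 1 was the highest library for ADGRF1 and GTF2IP1, but not for AHRR or GPR15.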

How the data were processed

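Poly(A)-selected libraries of sorted G1 cells were sequenced in paired ends. Per the study's methods the authors assigned reads to hg38 transcripts with kallisto and tested transcripts with sleuth. The transcript release was not given in the sources used here, nor was the strand setting. The tables deposited by the authors hold, per library and transcript, the estimated count that kallisto gave, not normalised, with length and effective length as other values; replicates were not pooled.

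Of 199240 transcripts, 178869 (89.8%) matched GENCODE 44 without version, holding 96.2% to 96.3% of each library's counts. Counts were added up for each of 36415 genes, then rounded. Unmatched transcripts entered only the test per transcript. TPM was derived by dividing deposited counts by effective length and scaling each library to a common total. Genes were tested with edgeR 4.0.16 (R 4.3.3; robust quasi-likelihood, TMM, minimum count 10, minimum total 15), treatment as the only term, and an adjusted p (Benjamini-Hochberg over all genes) under 0.1 was called. Log2 fold changes are auxin minus DMSO. CPM used TMM factors. Alternatives used DESeq2 1.42.0, limma 3.58.1, other scaling, filters, a replicate block and each library left out.

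Named genes were the members and their transcripts, every other called P450 gene and the 5 of highest mean TPM, the called genes of each list (at most the 4 with the smallest p), called neighbours within 250 kb or else the nearest, and the 5 genes most alike in profile to CYP1A1 and CYP1B1. AHR, ARNT, SERPINB2, EREG, ABCG2, NQO1, ALDH3A1, POR, EPHX1, ALAS1, CSK, CYP2C19, CYP39A1, the P450 genes listed at 0 and the markers other than KRT18 and CLDN4 were added after their values were seen. Members and lists were chosen with earlier results of these data known. Promoters are RefSeq, 250 bases before the start on GRCh38.p14, and 2 of 3 members matched.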

Additional observations from a re-analysis of the deposited data

How the results depend on the processing

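The fold changes of the 3 CYP1 genes kept their direction and their side of the threshold in all 43 values that the alternatives gave. CYP1A2 had too few counts for the minimum count of 50 and no adjusted p from DESeq2. Among 32 other named genes, 0 of 477 values reversed a called direction, 64 lost a call and 7 gained one. The count of called genes moved more: 1069 genes (63.7% higher) became 1638 (48.5% higher) with DESeq2, 366 (76.5%) with effective length as an offset, 452 (92.9%) with log2(TPM + 1) and 482 (92.9%) with log2(TPM + 0.1), and with DESeq2 size factors it was 1128 (56.5%). Leaving out 1 library gave 183 (without auxin replicate 2) to 1566 (without DMSO replicate 1), the count being 336 when auxin replicate 3 was left out, 316 for DMSO replicate 2 and 251 for DMSO replicate 3, and the cause of these moves was not tested. CYP1 transcripts called rose from 0 to 2 with DESeq2, to 1 with no count filter and to 2 with log2(TPM + 1), and were 0 to 1 with 1 library left out. The CYP1 share of P450 TPM differed by 10.6 percentage points with estimated counts.

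The labels number the replicates but do not say whether equal numbers are pairs. Same-numbered libraries deviated together only weakly (correlations 0.18, 0.05 and 0.07), although each library correlated best with its own number. The main test leaves the number out, and whether the libraries are paired was not settled. With the replicate block 4864 genes were called (52.6% higher) and 0 CYP1 transcripts. It called 3 other P450 genes higher and 2 lower, 1 of the AHR partner genes higher and 2 lower, and 3 electron donor genes lower. Further calls were 3 haem genes higher and 3 lower, and 1 conjugation gene higher and 3 lower. Of the markers, 1 fibroblast marker was called higher, and 1 colon epithelial marker higher and 4 lower. The log2 fold changes were 4.09 for CYP1A1 (SE 0.09), 3.07 for CYP1B1 (SE 0.09) and -0.14 for CYP1A2 (SE 0.25). Without the block the SEs were 0.12, 0.21 and 0.22.

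Depth limits CYP1A2, at 25.7 to 30.5 estimated counts a library, and the minor transcripts, several of which were at 0 in 1 or more DMSO libraries. Intervals cover the spread of 3 libraries a group, not the assignment error of kallisto.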
